A study of Mus musculus with 4 samples.

Results

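The 8 genes described here belong to the transforming growth factor beta (TGF-beta), activin and GDF15 pathways, and comprise 3 ligand genes (Tgfb1, Inhba, Gdf15), 2 receptor genes (Tgfbr1, Tgfbr2) and 3 target genes (Pmepa1, Smad7, Skil). They were taken by name, all 8 from the 12996 genes of a table of monocytes and macrophages and all 8 from the 13071 genes of a joint table of every annotated cell type. The study profiled cells of subcutaneous mouse tumours by 10x droplet single-cell RNA sequencing, in LLC (Lewis lung carcinoma) and B16 (melanoma) tumours. The LLC library came from F11r fl/fl LysM-Cre- mice, that is, mice with a floxed F11r gene and no Cre. A second LLC library, made with the CITE-seq method, in which antibody tags are read along with the RNA of each cell, came from C57BL/6J mice. The B16 library also came from C57BL/6J mice. Each of the 3 libraries was 1 pool of 3 mice with no replicate library, so a difference is judged by the size of its ratio alone and has no replicate check. The strain of the first LLC library and its tumour cannot be told apart in its comparison with B16. The CITE-seq LLC library shares the strain of the B16 mice, but it alone was made with CITE-seq. Method and tumour thus cannot be told apart in the comparison of CITE-seq LLC with B16.

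TGF-beta is secreted in a latent complex and, once freed, binds the type II receptor encoded by Tgfbr2, which activates the type I receptor encoded by Tgfbr1 and, through it, SMAD2 and SMAD3. Activin A, a dimer of the product of Inhba, uses its own receptors but the same SMAD proteins, while GDF15 is a distant family member made under cell stress and acts on a receptor in the hindbrain. Pmepa1, Smad7 and Skil are induced by TGF-beta signalling and dampen it, so their RNA is often read as a sign that the pathway is active.

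The monocyte and macrophage table held 8155 LLC, 10131 CITE-seq LLC and 2297 B16 cells, with median depths of 6530, 4546 and 9250 unique molecular identifiers (UMIs, counted RNA molecules) per cell. The joint table held 13021 LLC and 6870 B16 cells. Between 5 and 29 cell barcodes were shared by a pair of libraries of a table. All 7 macrophage markers were found in every library, at summed levels of 11643, 13704 and 15622 CPM, the unit explained further on, in LLC, CITE-seq LLC and B16. Subsets and cell types carry the authors' deposited names. TAM, in these names, stands for tumour-associated macrophage. Some names occur in both tables for different cells: TAM-1 of the joint table held 1619 LLC and 6 B16 cells, and TAM-1 of the monocyte and macrophage table held 2 LLC, 4 CITE-seq LLC and 941 B16 cells. The highest and lowest subset or cell type of a library is named among those with at least 50 of its cells. A gene listed at 0 in a whole library may have been left out of that library before deposit, since 1517 genes were at 0 in LLC of the joint table and only 3 were found in 1 to 5 of its cells, and such a 0 is not read as an absence. A level is given in CPM (counts per 1000000): the sum of a gene's UMIs over the cells of a subset, for every 1000000 UMIs of that subset. Levels are compared within a gene, never between genes. Brackets hold exact 95% intervals, which cover counting error only. Higher and lower mean a ratio past 1.5-fold, given for genes that had 20 or more UMIs in the sum of both groups.

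Over all monocytes and macrophages, Pmepa1 was higher and Inhba and Gdf15 were lower in both LLC libraries than in B16. The other genes stayed within 1.5-fold in LLC, and in CITE-seq LLC only Smad7 passed the threshold besides these. In LLC, 1 of the 8 genes was higher and 2 were lower, against 11.8% of all measured genes higher and 11.9% lower. In CITE-seq LLC, 2 were higher and 2 lower, against 9.93% and 11.0% of all genes. Both comparisons use the same B16 library and are not independent. Between the LLC libraries, 1 of the 8 genes, Inhba, was lower in CITE-seq LLC than in LLC, and none was higher, against 2.81% of all genes lower and 3.03% higher.

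Inhba and Gdf15 were the pair of genes lower in both LLC libraries than in B16, and the 250 bases before their annotated starts (RefSeq, GRCm38.p6) are shown for that reason. The Inhba window is chr13:16011601-16011850 on the plus strand and the Gdf15 window chr8:70632457-70632706 on the minus strand, both written 5′ to 3′ on the gene's strand.
Inhba: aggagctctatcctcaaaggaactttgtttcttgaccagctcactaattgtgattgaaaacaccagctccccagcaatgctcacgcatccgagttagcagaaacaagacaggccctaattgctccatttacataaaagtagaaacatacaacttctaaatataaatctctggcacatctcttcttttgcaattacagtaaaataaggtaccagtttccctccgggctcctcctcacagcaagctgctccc
Gdf15: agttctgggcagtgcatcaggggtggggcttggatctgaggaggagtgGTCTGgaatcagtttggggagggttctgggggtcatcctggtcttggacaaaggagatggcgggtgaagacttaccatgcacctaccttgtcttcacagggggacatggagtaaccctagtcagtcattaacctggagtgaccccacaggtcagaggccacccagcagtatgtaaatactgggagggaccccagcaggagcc
Capitals mark matches, on either strand, to any of the 5 motifs searched. These were the AP-1 motif TGANTCA, the cyclic AMP response element TGACGTCA, the C/EBP-ATF element TGATGNAA, the hypoxia response core ACGTG and the SMAD binding core GTCTG. The Gdf15 window held 1 match, to GTCTG, at 202 to 198 bases before the start. No motif matched in the Inhba window, which says only that these letters are not in it. Of 32851 mouse promoter windows of this length, 42.2% held GTCTG, 16.6% ACGTG, 6.75% TGANTCA, 3.45% TGATGNAA and 1.55% TGACGTCA.

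The genes lie on 8 chromosomes and are all annotated as protein coding in GENCODE vM21 on GRCm38 (mm10). Tgfb1 is at chr7:25687002-25705077 on the plus strand, Inhba at chr13:16011851-16031621 on the plus strand and Gdf15 at chr8:70629393-70632456 on the minus strand. Tgfbr1 is at chr4:47353222-47414931 on the plus strand and Tgfbr2 at chr9:116084293-116175360 on the minus strand. Pmepa1 is at chr2:173224458-173276533 on the minus strand, Skil at chr3:31095058-31122577 on the plus strand and Smad7 at chr18:75367529-75395935 on the plus strand.

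Among the ligands, Tgfb1 was found in every subset with little difference between tumours, while Inhba and Gdf15 were each concentrated in a few subsets and were higher in B16. Tgfb1, which encodes the main TGF-beta ligand of immune cells, had 381 CPM (376-386) in LLC cells, 411 CPM (405-416) in CITE-seq LLC cells and 311 CPM (304-318) in B16 cells. Against B16 the ratios were 1.23 (1.19-1.26) for LLC and 1.32 (1.29-1.36) for CITE-seq LLC, so neither passed 1.5-fold although the counting intervals lay apart.

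Within each library, the Tgfb1 level was highest in Monocytes or an immature subset and lower in hypoxic subsets and in most mature ones. Monocytes had 512 CPM (490-534) in LLC cells, 506 CPM (480-532) in CITE-seq LLC cells and 528 CPM (500-556) in B16 cells, with overlapping intervals. Immature TAM-2 had the highest Tgfb1 levels of the LLC libraries, 534 CPM in LLC and 624 CPM in CITE-seq LLC. TAM-4 had 301 and 351 CPM in LLC and CITE-seq LLC, and LLC TAM Hypoxic 254 and 301 CPM. In B16, Immature TAM-1 had 355 CPM, TAM-1 258 CPM and Mono/TAM Hypoxic 225 CPM, the lowest of its subsets. Mono/TAM Hypoxic was the one shared subset in which Tgfb1 passed 1.5-fold against B16, with 341 CPM (326-357) in LLC and 402 CPM (374-432) in CITE-seq LLC against 225 CPM (201-251) in B16. The ratios were 1.52 (1.35-1.71) for LLC and 1.79 (1.57-2.04) for CITE-seq LLC. Ppbp and Pf4, listed here as platelet markers, summed to 3166, 2023 and 1232 CPM in this subset in LLC, CITE-seq LLC and B16. In LLC the sum was 5126 CPM in LLC TAM Hypoxic, 2246 CPM in TAM-4 and 74.0 CPM in Monocytes. It was thus not particular to Mono/TAM Hypoxic. The other 3 listed platelet markers were not analysed here as RNA. The antibody tag for CD41, a platelet protein, had 6976 counts per 1000000 tag counts (6690-7271) in this subset of CITE-seq LLC. That is above 593 for the highest isotype control tag. The tag for CD62P, also a platelet protein, had 324 (265-393), below that control. CD41 was not particular to this subset, with 9407 in LLC TAM Hypoxic and 3784 over all cells. Both tags were read in no other library here. The part of the source of Ppbp and Pf4 in the Tgfb1 difference was not tested.

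Inhba, which encodes the subunit of activin A, had 14.2 CPM (13.3-15.1) in LLC cells, 4.96 CPM (4.40-5.57) in CITE-seq LLC cells and 31.9 CPM (29.7-34.2) in B16 cells. Ratios to B16 were 0.445 (0.403-0.490) for LLC and 0.156 (0.135-0.178) for CITE-seq LLC. Few cells carried it: the 1% of cells with the most Inhba UMIs held 72.3% of them in LLC, 90.1% in CITE-seq LLC and 66.3% in B16, and a single B16 cell held 68 UMIs. The CITE-seq LLC level was also lower than that of LLC, at a ratio of 0.350 (0.305-0.401), so the LLC libraries differed in this gene by more than 1.5-fold. With the Mono/TAM Hypoxic cells left out, also chosen after seeing the data, the ratios to B16 were 0.40 for LLC and 0.364 for CITE-seq LLC.

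Mono/TAM Hypoxic was the main Inhba subset in all 3 libraries. It had 129 CPM (119-138) in LLC cells, 73.4 CPM (61.6-86.9) in CITE-seq LLC cells and 427 CPM (394-462) in B16 cells. It held 81.1% of the Inhba UMIs in LLC, 47.7% in CITE-seq LLC and 78.2% in B16, while it made up 13.4%, 5.63% and 9.27% of their cells. The ratios to B16 within this subset were 0.301 (0.270-0.336) for LLC and 0.172 (0.142-0.208) for CITE-seq LLC. Mono/TAM IFN showed a larger difference, with 8.39 CPM (5.43-12.4) in LLC cells, 2.51 CPM (1.25-4.50) in CITE-seq LLC cells and 83.4 CPM (68.6-100) in B16 cells, and ratios of 0.101 (0.0624-0.156) and 0.0301 (0.0146-0.0560) for LLC and CITE-seq LLC.

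Other subsets carried little Inhba. TAM-4 had 1.38 CPM in LLC and 1.89 CPM in CITE-seq LLC, and TAM-3 0.876 and 0.449 CPM. B16 TAM-1 had 2.43 CPM. Immature TAM-1 went the other way in the 76 cells of CITE-seq LLC, with 30.2 CPM (15.6-52.8) from 12 UMIs against 4.18 CPM (2.62-6.33) from 22 UMIs in B16.

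Gdf15, a stress-induced cytokine gene, had 8.65 CPM (7.93-9.41) in LLC cells, 7.08 CPM (6.41-7.81) in CITE-seq LLC cells and 47.0 CPM (44.3-49.7) in B16 cells. Against B16 the ratios were 0.184 (0.166-0.204) and 0.151 (0.134-0.169) for LLC and CITE-seq LLC, and the LLC libraries lay within 1.5-fold of each other. Melanocyte genes, which mark B16 tumour cell RNA, summed to 0 CPM in both LLC libraries and 47.2 CPM in B16, with UMIs for 5 of the 5 listed in B16, the LLC values being a 0 over the whole library. Their part in the Gdf15 difference was not tested.

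Among subsets of at least 50 cells, the one with the most Gdf15 differed between tumours. In the LLC libraries it was LLC TAM Hypoxic, with 65.7 CPM (57.7-74.5) in LLC and 54.3 CPM (45.9-63.9) in CITE-seq LLC, where it held 45.8% and 36.1% of the Gdf15 UMIs. In B16 it was TAM-1, with 73.0 CPM (68.5-77.7) and 85.2% of the UMIs, a subset with 2 cells in LLC, 4 in CITE-seq LLC and 941 in B16. The 17 B16 cells named LLC TAM Hypoxic, too few for that comparison, had 352 CPM (261-464) from 50 UMIs, above the level of B16 TAM-1. The level in LLC TAM Hypoxic cells of LLC thus overlapped that of B16 TAM-1 within counting error, and the one of CITE-seq LLC lay below it. TAM-4, which is nearly confined to the LLC libraries with 1585 LLC, 2606 CITE-seq LLC and 2 B16 cells, had 7.80 CPM in LLC and 6.23 CPM in CITE-seq LLC. In the separate annotation of the B16 library, Gdf15 had 150 CPM in Mac-2, 40.5 CPM in Mac-1, 28.0 CPM in Mac-Prolif and 4.02 CPM, from 3 UMIs, in Mac-Lyve1.

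In shared subsets the Gdf15 counts were small. Mono/TAM Hypoxic had 11.4 CPM (8.76-14.6) in LLC cells, 26.7 CPM (19.7-35.2) in CITE-seq LLC cells and 32.5 CPM (23.9-43.2) in B16 cells. That gave ratios to B16 of 0.351 (0.237-0.524) for LLC, which is past the threshold, and 0.821 (0.539-1.25) for CITE-seq LLC, which is not. Mono/TAM IFN had 0 Gdf15 UMIs in LLC, 7 in CITE-seq LLC and 14 in B16, and Monocytes 3, 2 and 15.

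**Figure D1:**
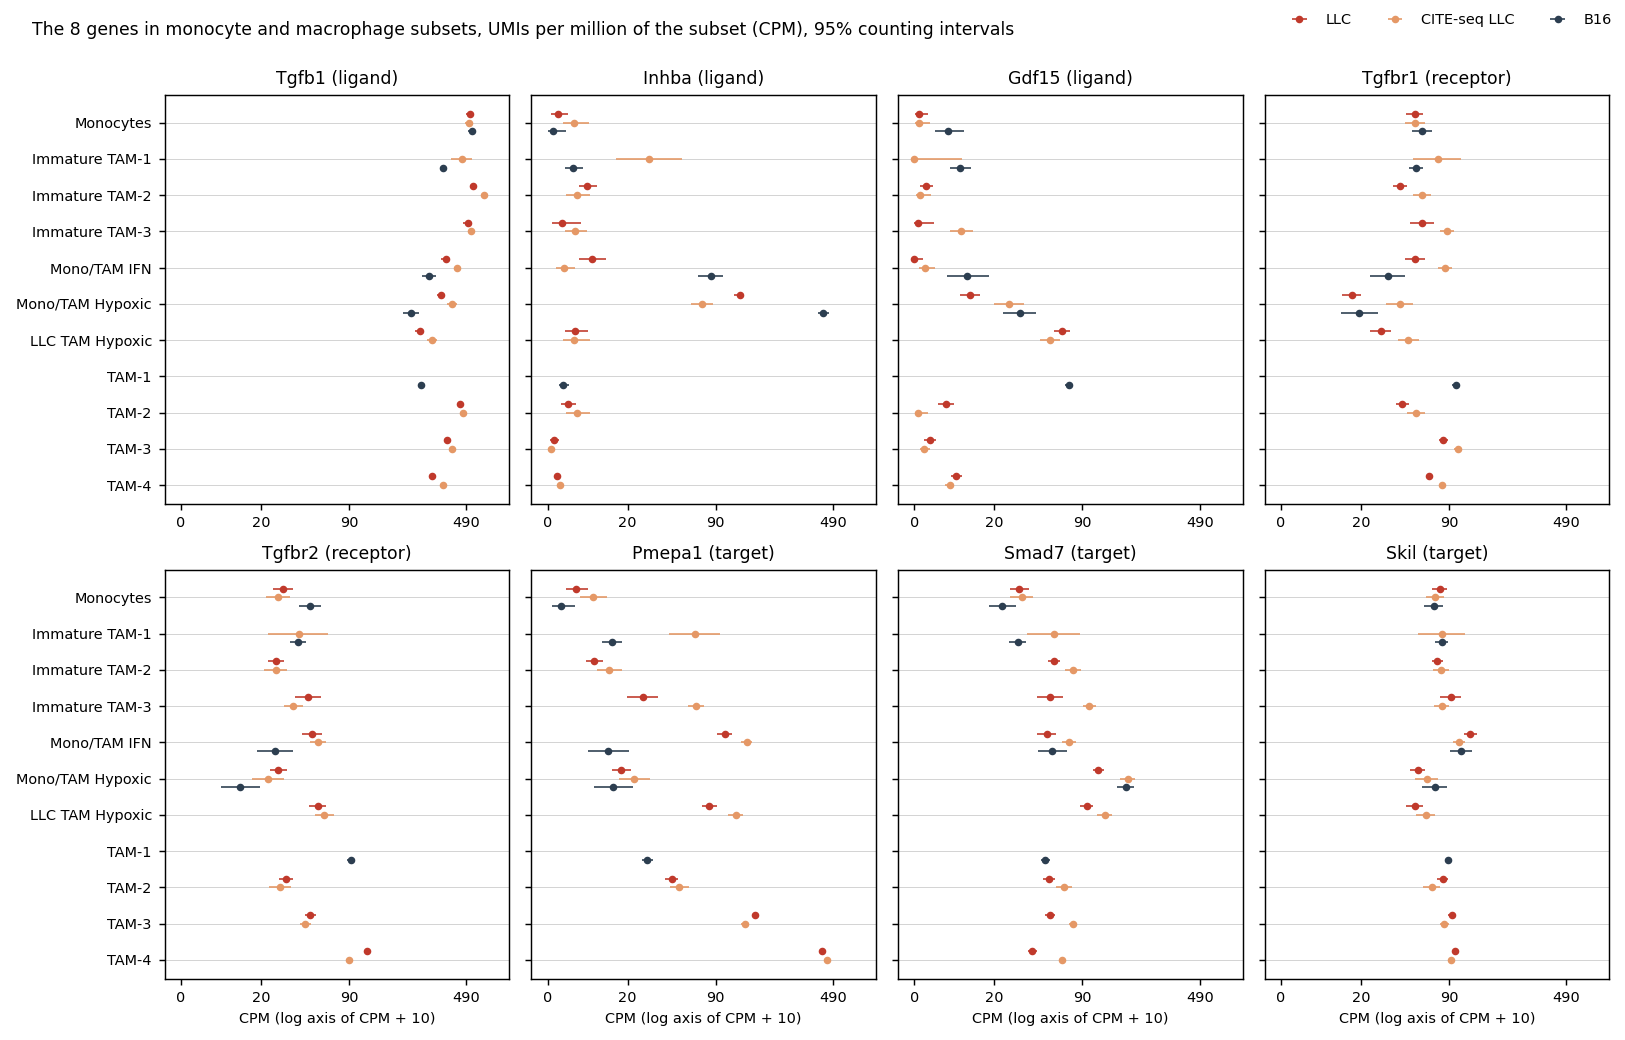
Level of each of the 8 genes (x axis, CPM on a log axis of CPM + 10) in the monocyte and macrophage subsets (y axis) with at least 50 cells in a library, as points with exact 95% counting intervals for LLC, CITE-seq LLC and B16. Pmepa1 reaches 420 CPM in LLC and 450 CPM in CITE-seq LLC in TAM-4 and no more than 29.2 CPM in any B16 subset, and Inhba stands out in Mono/TAM Hypoxic in every library.

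The receptor genes differed little between tumours over all cells, and both were highest in mature subsets of either tumour. Tgfbr1, the type I receptor gene, had 55.0 CPM (53.2-56.9) in LLC cells, 78.5 CPM (76.2-80.9) in CITE-seq LLC cells and 76.5 CPM (73.1-80.0) in B16 cells. Ratios to B16 were 0.720 (0.680-0.762) and 1.03 (0.973-1.08) for LLC and CITE-seq LLC, both within 1.5-fold. Tgfbr2, the type II receptor gene that binds the ligand, had 62.8 CPM (60.9-64.8) in LLC cells, 60.0 CPM (58.0-62.1) in CITE-seq LLC cells and 67.2 CPM (64.0-70.5) in B16 cells. Its ratios were 0.935 (0.883-0.991) and 0.894 (0.843-0.948). With the TAM-4 cells left out, an alternative chosen after seeing the data, the Tgfbr2 ratios were 0.573 for LLC and 0.603 for CITE-seq LLC. The Tgfbr1 ratio for LLC was 0.653, and all 3 were past 1.5-fold. TAM-1, with 76.0% of the B16 Tgfbr2 UMIs, stayed in, so these ratios do not compare like subsets. With equal weight of the subsets that had at least 50 cells in both libraries, the Tgfbr2 ratios were 1.25 for LLC and 1.16 for CITE-seq LLC. The Tgfbr1 ratios were then 1.09 and 1.53.

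By subset, Tgfbr2 had 118 CPM (113-123) in TAM-4 of LLC, 89.4 CPM (85.5-93.3) in TAM-4 of CITE-seq LLC and 93.1 CPM (88.0-98.4) in TAM-1 of B16. Its lowest levels were 26.8 CPM in Immature TAM-2 of LLC, 22.8 CPM in Mono/TAM Hypoxic of CITE-seq LLC and 12.4 CPM in Mono/TAM Hypoxic of B16. Tgfbr1 had its highest levels in TAM-3 of the LLC libraries, 82.7 CPM in LLC and 103 CPM in CITE-seq LLC, and in TAM-1 of B16, 100 CPM (94.8-106). Mono/TAM Hypoxic had the lowest Tgfbr1 level of each library, 16.3 CPM in LLC cells, 40.8 CPM in CITE-seq LLC cells and 19.3 CPM in B16 cells. This subset thus held the highest Inhba and the lowest Tgfbr1 levels of every library.

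Within shared subsets Tgfbr2 was higher in LLC cells in some and lower in others. In Mono/TAM IFN it had 50.3 CPM in LLC cells, 55.7 CPM in CITE-seq LLC cells and 26.3 CPM in B16 cells, ratios of 1.91 (1.32-2.85) and 2.12 (1.48-3.11) for LLC and CITE-seq LLC. In Mono/TAM Hypoxic it had 28.0, 22.8 and 12.4 CPM in LLC, CITE-seq LLC and B16, ratios of 2.25 (1.38-3.91) and 1.84 (1.04-3.39), with 18 UMIs in B16. In Monocytes it had 30.5, 27.8 and 48.5 CPM in LLC, CITE-seq LLC and B16, ratios of 0.628 (0.486-0.812) and 0.573 (0.427-0.764). These 3 subsets held few of the Tgfbr2 UMIs, while TAM-4 held 57.4% of them in LLC and 59.4% in CITE-seq LLC and TAM-1 76.0% in B16. Tgfbr1 was higher in the LLC libraries in Mono/TAM IFN, with 52.7 CPM in LLC cells, 84.5 CPM in CITE-seq LLC cells and 33.1 CPM in B16 cells, ratios of 1.59 (1.13-2.28) and 2.56 (1.87-3.58).

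Over all monocytes and macrophages, Pmepa1 had the ratios to B16 farthest from 1 of the 8 genes, while those of Smad7 and Skil, targets of the same pathway, lay much nearer to 1. With the TAM-4 cells left out the order changed, and Gdf15 was farther from 1 than Pmepa1, at ratios of 0.192 for LLC and 0.163 for CITE-seq LLC. That removal acts almost only on the LLC libraries. TAM-1, which held 85.2% of the B16 Gdf15 UMIs and which the LLC libraries scarcely hold, was kept. Pmepa1, which encodes a membrane protein that sequesters receptor-activated SMADs, had 174 CPM (171-177) in LLC cells, 234 CPM (230-238) in CITE-seq LLC cells and 21.4 CPM (19.6-23.3) in B16 cells. The ratios to B16 were 8.14 (7.46-8.90) for LLC and 10.9 (10.0-11.9) for CITE-seq LLC. By ratio it ranked 53 of 11196 measured genes in LLC, and in CITE-seq LLC 33 of 11350. Fibroblast markers summed to 10.1 CPM in LLC cells, 6.19 CPM in CITE-seq LLC cells and 0 CPM in B16 cells, with UMIs for 4, 2 and 0 of the 4 in the table, so that their B16 level is a 0 over the whole library. T cell markers summed to 1.94, 3.58 and 28.6 CPM in LLC, CITE-seq LLC and B16. The part of either in the Pmepa1 difference was not tested.

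Most Pmepa1 UMIs came from 1 mature subset of each tumour. TAM-4 had 420 CPM (411-430) in LLC and 450 CPM (441-459) in CITE-seq LLC, where it held 73.5% and 76.9% of Pmepa1 UMIs with 19.4% and 25.7% of cells. TAM-1 of B16 had 29.2 CPM (26.4-32.2) and held 74.9% of the B16 Pmepa1 UMIs with 41.0% of cells. TAM-3 had 162 CPM in LLC and 139 CPM in CITE-seq LLC, and LLC TAM Hypoxic 81.8 and 122 CPM. With the TAM-4 cells left out, the Pmepa1 ratios to B16 were 3.09 for LLC and 4.20 for CITE-seq LLC, so the pooled ratios rest in large part on a subset that B16 scarcely holds.

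Pmepa1 also differed in subsets that the tumours share. Mono/TAM IFN had 103 CPM (91.5-115) in LLC cells, 143 CPM (132-155) in CITE-seq LLC cells and 12.8 CPM (7.44-20.5) in B16 cells, ratios of 8.04 (4.94-14) and 11.2 (6.95-19.4). Mono/TAM Hypoxic had 17.4 CPM (14.1-21.2) in LLC cells, 22.8 CPM (16.5-30.9) in CITE-seq LLC cells and 14.5 CPM (8.98-22.2) in B16 cells. The ratios there were 1.20 (0.741-2.02) for LLC and 1.58 (0.912-2.80) for CITE-seq LLC, and both intervals include 1. Monocytes had 4.67 CPM (2.81-7.29) in LLC cells, 8.57 CPM (5.55-12.6) in CITE-seq LLC cells and 1.96 CPM (0.635-4.56) in B16 cells, the last from 5 UMIs. The Monocytes ratios were 2.39 (0.862-8.18) for LLC, with an interval that includes 1, and 4.38 (1.65-14.7) for CITE-seq LLC. Macrophage markers also differed in Mono/TAM IFN, at 9809, 10268 and 5938 CPM in LLC, CITE-seq LLC and B16, and their part in the Pmepa1 difference there was not tested.

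Smad7, which encodes the inhibitory SMAD that blocks the type I receptor, had 56.7 CPM (54.9-58.6) in LLC cells, 76.8 CPM (74.6-79.2) in CITE-seq LLC cells and 51.0 CPM (48.2-53.8) in B16 cells. Against B16 the ratios were 1.11 (1.04-1.19) for LLC and 1.51 (1.42-1.61) for CITE-seq LLC, the second just past the threshold. With each cell thinned to 2000 UMIs the CITE-seq LLC ratio was 1.25, short of the threshold. It was 1.21, also short, with equal weight of the subsets that had at least 50 cells in both libraries. Those were Monocytes, Immature TAM-1, Mono/TAM IFN and Mono/TAM Hypoxic alone. The highest Smad7 level was in Mono/TAM Hypoxic in every library. It was 114 CPM (106-124) in LLC cells, 176 CPM (157-196) in CITE-seq LLC cells and 171 CPM (151-194) in B16 cells. Monocytes had 32.2, 33.6 and 23.5 CPM in LLC, CITE-seq LLC and B16, and TAM-4 had 40.4 CPM in LLC and 66.1 CPM in CITE-seq LLC. In the LLC libraries Smad7 was thus high in a subset where Pmepa1 was low, and not high in TAM-4, where Pmepa1 was highest. Not all subsets went this way. LLC TAM Hypoxic was second in Smad7, at 96.0 CPM in LLC and 126 CPM in CITE-seq LLC. Its Pmepa1 levels there, 81.8 and 122 CPM, lay above the medians of 44.7 and 65.9 CPM over the subsets. In B16 the Pmepa1 level of Mono/TAM Hypoxic, 14.5 CPM, was not low, beside a median of 14.1 CPM over the B16 subsets.

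Skil, which encodes SnoN, a repressor of SMAD-driven transcription, had nearly equal levels in the 3 libraries. It had 86.1 CPM (83.8-88.4) in LLC cells, 85.3 CPM (82.9-87.8) in CITE-seq LLC cells and 85.2 CPM (81.6-88.9) in B16 cells. Ratios to B16 lay within 0.961 to 1.06 for LLC and 0.952 to 1.05 for CITE-seq LLC, and both intervals include 1. Its highest level was in Mono/TAM IFN in every library, at 124 CPM in LLC cells, 105 CPM in CITE-seq LLC cells and 108 CPM in B16 cells.

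Counted by shared subset, 3 of 7 measured genes were higher and 1 lower in Mono/TAM IFN of LLC, against 22.8% of all genes higher and 8.09% lower. In the same subset of CITE-seq LLC 3 of 8 were higher and 2 lower, against 26.0% and 8.52%. In Mono/TAM Hypoxic 2 of 8 were higher and 2 lower in LLC, against 18.5% and 12.6%, and 4 of 8 higher and 1 lower in CITE-seq LLC, against 15.3% and 10.5%. In Monocytes 1 of 6 was higher and 1 lower in each LLC library, against 7.52% higher and 10.3% lower in LLC and 7.13% and 10.3% in CITE-seq LLC. In Immature TAM-1, compared for CITE-seq LLC alone, 3 of 8 were higher and 0 lower, against 14.2% and 16.4%. Of these, Pmepa1 was past the threshold in Monocytes of both LLC libraries and in Mono/TAM IFN of both. In CITE-seq LLC it was also higher in Mono/TAM Hypoxic and in Immature TAM-1, the latter from 26 UMIs against 74 in B16. Its intervals in Monocytes of LLC and in Mono/TAM Hypoxic of CITE-seq LLC include 1.

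Between the LLC libraries, 1 of the 8 genes was higher and 0 lower in TAM-4 of CITE-seq LLC than in TAM-4 of LLC, against 4.08% of all genes higher and 2.87% lower. In Mono/TAM Hypoxic 3 of 8 were higher and 1 lower, against 10.4% in each direction. Pmepa1 differed little in TAM-4, where the ratio of CITE-seq LLC to LLC was 1.07 (1.04-1.10). In the same subset Smad7 had 66.1 CPM (62.8-69.5) in CITE-seq LLC cells and 40.4 CPM (37.6-43.4) in LLC, a ratio of 1.63 (1.5-1.79). In Mono/TAM Hypoxic, Inhba had 73.4 CPM in CITE-seq LLC cells and 129 CPM in LLC, a ratio of 0.571 (0.472-0.687), and Tgfbr1 had 40.8 CPM in CITE-seq LLC cells and 16.3 CPM in LLC, a ratio of 2.51 (1.82-3.44). Strain, library type and mice differ between these libraries and cannot be told apart.

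**Figure D2:**
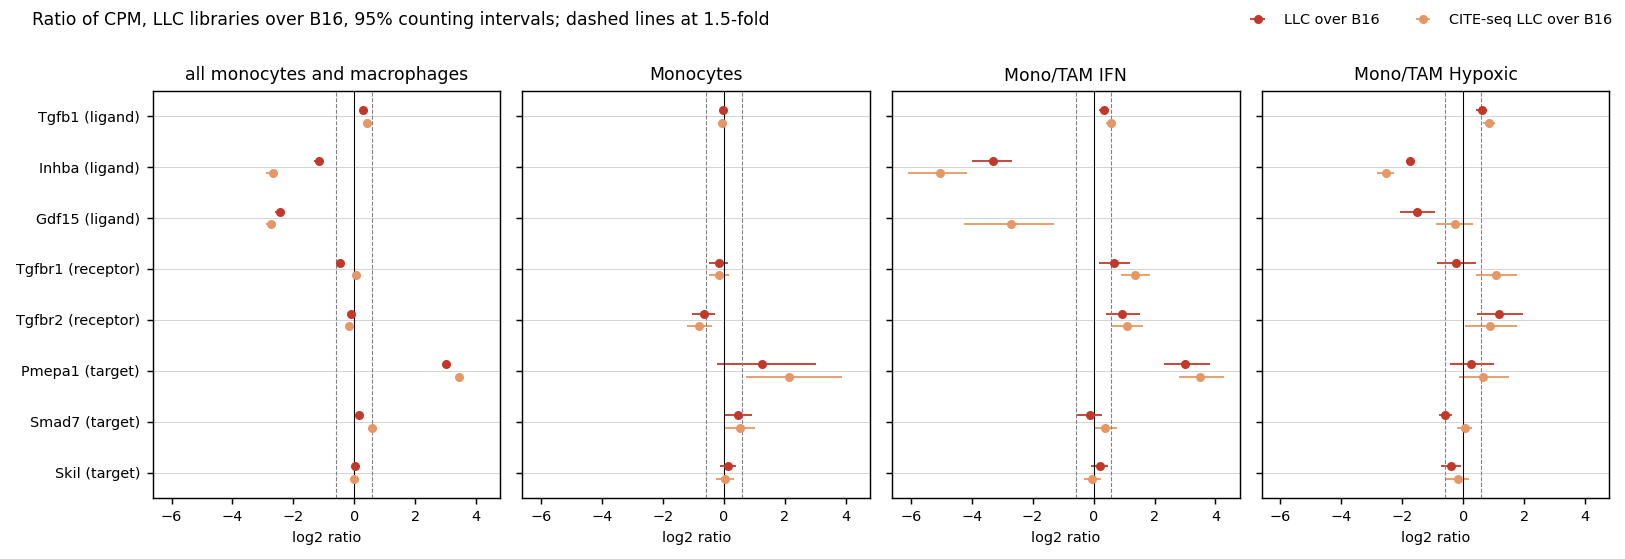
Ratio of CPM (x axis, log2 scale) of LLC over B16 and of CITE-seq LLC over B16 for the 8 genes (y axis), over all monocytes and macrophages and in the 3 subsets with at least 50 cells in every library, with exact 95% counting intervals and dashed lines at 1.5-fold. Pmepa1 lies right of the dashed line over all cells and in Mono/TAM IFN, Inhba lies left of it wherever it was measured, and Skil lies between the lines in all 4 panels.

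Beyond monocytes and macrophages, the joint table places Inhba and Gdf15 in the Neutrophil-2 cluster, and Smad7 in T cells and, in LLC, B cells. It places Pmepa1 in plasmacytoid dendritic cells of B16, NK cells and some T cell clusters. Of 88 pairs of gene and cell type over the 11 cell types with at least 50 cells in both libraries, 74 were measured. LLC was higher than B16 in 14 and lower in 17 of them, against 14.8% and 14.4% of all measured pairs of gene and cell type. Neutrophil-2 had more lower ones than any other cell type, with 1 of 7 measured genes higher and 5 lower in LLC, against 24.5% of all genes higher and 31.8% lower, so the background is high there too. In Neutrophil-1 0 of 5 were higher and 3 lower, against 12.8% and 26.1%. Imm TAM-4 and cDC2 had more higher ones than the rest, Imm TAM-4 with 3 of 8 higher and 1 lower, against 18.0% and 14.6%. In cDC2 3 of 6 were higher and 0 lower, against 16.3% and 9.48%. Imm TAM-2 had 2 of 8 higher and 2 lower, against 20.7% and 9.42%, Monocytes 2 and 2 of 8, against 8.27% and 11.2%, and Imm TAM-3 1 and 2 of 8, against 11.6% and 10.6%. In B cells 1 of 6 was higher and 1 lower, against 13.8% and 17.6%, and in Naive T cells 1 of 6 was higher and 0 lower, against 15.5% and 11.1%. NK cells had 0 higher and 1 lower of 6, against 9.31% and 15.5%, and migDC, migratory dendritic cells, 0 and 0 of 6, against 12.7% and 15.0%.

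Tgfb1 was highest in Monocytes in both libraries, 523 CPM in LLC cells and 525 CPM in B16 cells, and Neutrophil-1 was lowest in LLC at 65.4 CPM and Plasma cells lowest in B16 at 33.5 CPM. Tregs-2, a regulatory T cell cluster with 165 B16 cells, had 239 CPM, and 54.5% of its cells were among the 6% of the library with the highest doublet scores. The Tgfb1 level was higher in LLC in cDC2, conventional dendritic cells, with 279 CPM in LLC against 167 CPM in B16 and a ratio of 1.67 (1.47-1.91). It was lower in LLC in Neutrophil-2, with 78.9 CPM in LLC against 160 CPM in B16 and a ratio of 0.493 (0.323-0.784), with 25 UMIs in B16.

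Inhba marked one of the neutrophil clusters in both tumours. Neutrophil-2 had 129 CPM, from 278 UMIs, in LLC and 410 CPM, from 64 UMIs, in B16. Neutrophil-1 had 10.9 CPM in LLC and 8.15 CPM, from 3 UMIs, in B16. The Neutrophil-2 ratio of LLC to B16 was 0.315 (0.239-0.420). Neutrophil markers summed to 108846 CPM in LLC cells and 38984 CPM in B16 cells in Neutrophil-2, and macrophage markers to 727 and 486 CPM. Gdf15 followed with 18.1 CPM in LLC cells and 89.6 CPM in B16 cells in Neutrophil-2, a ratio of 0.202 (0.107-0.403) with 14 B16 UMIs. Neutrophil-1 held 0 Gdf15 UMIs in either library, which allows levels of up to 2.34 CPM in LLC cells and 8.15 CPM in B16 cells at 3 counts. In Neutrophil-2 both marker sums were thus higher in LLC, while Inhba and Gdf15 were lower there. The part of the marker differences in these ratios was not tested.

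Among the macrophage clusters of the joint table, Imm TAM-2 had 113 CPM of Inhba in LLC and 273 CPM in B16, a ratio of 0.416 (0.367-0.471), and 41.7 and 66.6 CPM of Gdf15. Imm TAM-3 had 12.9 CPM of Inhba in LLC and 57.3 CPM in B16, a ratio of 0.225 (0.156-0.315). Neutrophil markers summed to 3931 CPM in Imm TAM-3 of LLC and 138 CPM in Imm TAM-3 of B16, and their part in that cluster's differences was not tested. In B16 lymphocytes, cDC1, cDC2 and pDC (plasmacytoid dendritic cells), Inhba stayed between 0 and 2.30 CPM.

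The receptor genes had different leading cell types. Tgfbr1 was highest in TAM-3 of B16, 102 CPM, and in TAM-2 of LLC, 66.9 CPM, and pDC of B16 had 66.3 CPM. Tgfbr2 was high in B cells, 131 CPM in LLC cells and 107 CPM in B16 cells, and in Naive T cells, 123 CPM in LLC cells and 102 CPM in B16 cells, levels close to those of macrophages, which had 119 CPM in TAM-1 of LLC and 90.2 CPM in TAM-3 of B16. In Imm TAM-4 both receptor genes were higher in LLC, Tgfbr1 with 64.9 CPM in LLC against 22.9 CPM in B16 and Tgfbr2 with 48.3 CPM in LLC against 24.2 CPM in B16. The B16 values rest on 17 and 18 UMIs. In Neutrophil-1 both were lower in LLC, Tgfbr1 with 21.0 CPM in LLC against 46.2 CPM in B16 and Tgfbr2 with 39.7 CPM in LLC against 89.6 CPM in B16, with 17 and 33 B16 UMIs.

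Pmepa1 was expressed in lymphocytes of both tumours at levels that did not follow the macrophage difference. Naive T cells had 119 CPM in LLC cells and 125 CPM in B16 cells, a ratio of 0.950 (0.706-1.26). NK cells had 54.3 CPM in LLC cells and 84.7 CPM in B16 cells, a ratio of 0.641 (0.433-0.931). In B16, pDC had 152 CPM, Tregs-1 111 CPM and CD8 T cells 12.0 CPM. The 3 macrophage clusters held by both libraries had higher Pmepa1 in LLC: Imm TAM-2 with 34.6 CPM in LLC against 12.8 CPM in B16, Imm TAM-3 with 75.2 CPM in LLC against 13.1 CPM in B16, and Imm TAM-4 with 115 CPM in LLC against 18.8 CPM in B16. The ratios were 2.70 (1.69-4.58), 5.72 (4.39-7.53) and 6.12 (3.64-11.2). The LLC clusters TAM-1, TAM-2 and Prolif TAM had 418, 426 and 370 CPM, while TAM-3 of B16 had 29.3 CPM.

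Smad7 was highest in Naive T cells of LLC, 213 CPM, with B cells of LLC next at 173 CPM. In these 102 B cells of LLC, neutrophil markers summed to 8547 CPM and B cell markers to 5424 CPM. The part of the neutrophil markers in the Smad7 and Tgfbr2 levels of these cells was not tested. In B16 Smad7 was highest in Tregs-1 and Naive T cells, 208 and 200 CPM. It did not pass 1.5-fold between tumours in any of the 11 cell types, B cells among them. Skil passed it in 1 of 11, Neutrophil-2, with 127 CPM in LLC against 224 CPM in B16 and a ratio of 0.568 (0.398-0.832), and Neutrophil-2 was its highest cell type in both libraries. Counted by gene over the 11 cell types, Pmepa1 was higher in LLC in 5 and lower in 1, Gdf15 higher in 0 and lower in 4, Inhba higher in 1 and lower in 4, Tgfbr1 higher in 3 and lower in 3, Tgfbr2 higher in 3 and lower in 2, and Tgfb1 higher in 2 and lower in 2.

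**Figure D3:**
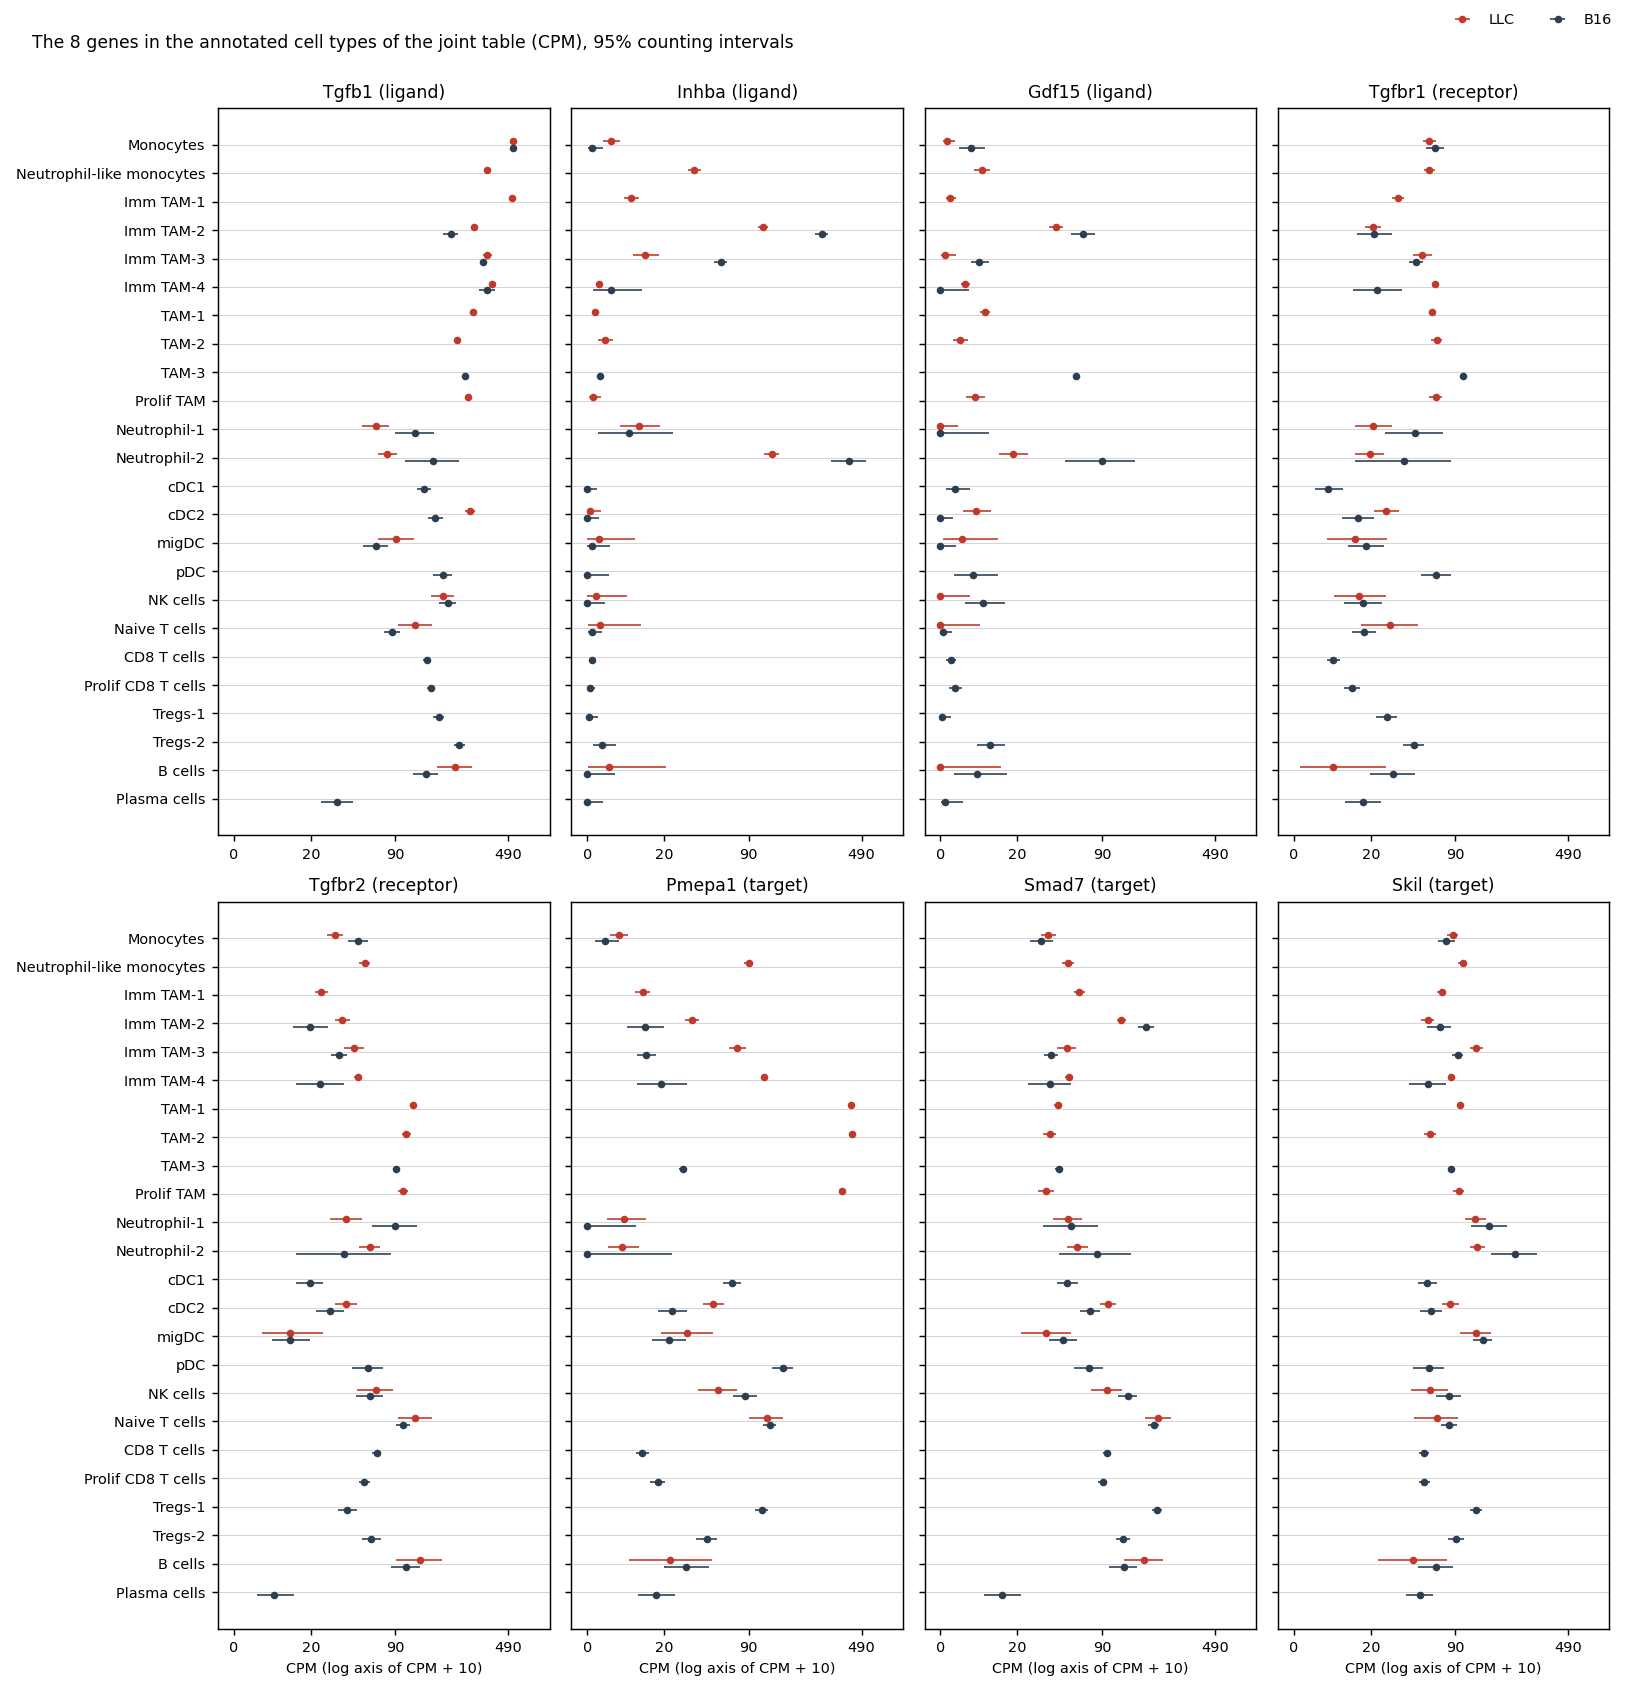
Level of each of the 8 genes (x axis, CPM on a log axis of CPM + 10) in the annotated cell types of the joint table (y axis) with at least 50 cells in a library, as points with exact 95% counting intervals for LLC and B16. Inhba is high in Imm TAM-2 and Neutrophil-2, at 410 CPM in Neutrophil-2 of B16, Pmepa1 in the LLC clusters TAM-1, TAM-2 and Prolif TAM, and Smad7 in Naive T cells of both tumours.

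The rest of the pathway was described from lists of 73 further genes in 12 groups. Over all monocytes and macrophages, 49 of them were measured in LLC against B16, of which 14 were higher and 10 lower, and 50 in CITE-seq LLC, of which 9 were higher and 12 lower. The shares of all measured genes, which are the background for each group of the lists, were 11.8% higher and 11.9% lower in LLC and 9.93% and 11.0% in CITE-seq LLC. The median log2 ratios of these genes were 0.29 in LLC and 0.09 in CITE-seq LLC, beside 0.03 and 0.04 over all measured genes.

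Among genes that hold TGF-beta latent or free it, 3 of 7 measured were higher and 0 lower in each LLC library. Thbs1, encoding thrombospondin 1, which can activate latent TGF-beta, had 2029 CPM in LLC cells, 790 CPM in CITE-seq LLC cells and 285 CPM in B16 cells, ratios of 7.12 (6.95-7.29) and 2.77 (2.70-2.84). In Mono/TAM Hypoxic Thbs1 had 7662 CPM in LLC cells, 3775 CPM in CITE-seq LLC cells and 2008 CPM in B16 cells. In TAM-4, the Pmepa1-rich subset, it had 318 CPM in LLC and 302 CPM in CITE-seq LLC, and in TAM-1 of B16 48.6 CPM. Mmp9, encoding a matrix protease, had 26.5, 36.9 and 1.49 CPM in LLC, CITE-seq LLC and B16, ratios of 17.7 (12.8-25.3) and 24.7 (17.9-35.2). Ltbp3, encoding a latent TGF-beta binding protein and also listed among the targets, had ratios of 2.40 (1.82-3.21) and 2.23 (1.68-3.00). Platelets also hold thrombospondin 1. Ppbp and Pf4, listed here as platelet markers, summed to 1850 CPM in LLC cells, 1160 CPM in CITE-seq LLC cells and 493 CPM in B16 cells. Their part in the Thbs1 difference was not tested.

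Of the TGF-beta receptor group, 0 of 5 were higher and 3 lower in each LLC library, the 3 being the co-receptor genes Eng and Tgfbr3 and Acvrl1, a type I receptor gene. Acvrl1 had 59.1 CPM in LLC cells, 55.7 CPM in CITE-seq LLC cells and 101 CPM in B16 cells, ratios of 0.582 (0.553-0.613) and 0.549 (0.521-0.579). Eng, encoding endoglin, had 11.0, 12.0 and 22.7 CPM in LLC, CITE-seq LLC and B16, ratios of 0.483 (0.431-0.541) and 0.528 (0.471-0.591). Tgfbr3 was low everywhere, with 26 UMIs in B16, and its intervals of 0.388 to 1.10 and 0.353 to 1.04 include 1. The ligand gene Tgfb3 had 2.49, 1.58 and 8.51 CPM in LLC, CITE-seq LLC and B16, ratios of 0.292 (0.236-0.362) and 0.185 (0.143-0.238).

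The SMAD signal carriers did not differ by 1.5-fold, with 0 of 5 measured higher or lower in either LLC library. The ratios ran between 0.849 for Smad1 and 1.39 for Smad4 in LLC. Of the 4 measured activin receptor genes, 2 were higher in LLC and 1 in CITE-seq LLC, with Acvr2a at 8.81, 8.31 and 4.40 CPM in LLC, CITE-seq LLC and B16, ratios of 2.0 (1.63-2.48) and 1.89 (1.53-2.35). Fstl1, listed with the activin antagonists, was higher in both LLC libraries but from 5 B16 UMIs, and its interval for CITE-seq LLC, 0.927 to 8.07, includes 1. In the bone morphogenetic protein (BMP) group, 1 of 5 was higher and 1 lower in LLC and 0 higher and 2 lower in CITE-seq LLC. Id3, a BMP target, was lower in both, with 8.86, 7.47 and 15.9 CPM in LLC, CITE-seq LLC and B16.

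In the negative feedback group, which holds Pmepa1, Smad7 and Skil, 2 of 10 were higher and 1 lower in LLC, and 4 higher and 2 lower in CITE-seq LLC. Ski, the relative of Skil, was higher in both, with 74.4, 80.5 and 45.4 CPM in LLC, CITE-seq LLC and B16, ratios of 1.64 (1.53-1.75) and 1.77 (1.66-1.89). Tgif1, another repressor of SMAD targets, was lower in both, with ratios of 0.631 (0.590-0.674) and 0.647 (0.606-0.692). Of 7 measured other transcriptional targets, 3 were higher and 1 lower in LLC, and 2 higher and 1 lower in CITE-seq LLC. Cdkn2b, the gene of a cell cycle inhibitor, had 138 UMIs in LLC, 100 in CITE-seq LLC and 1 in B16, ratios of 55.3 (9.76-2199) and 43.4 (7.62-1733). Itgae was lower in both but from 7, 22 and 16 UMIs in LLC, CITE-seq LLC and B16.

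Stress genes that share inducers with Gdf15 went both ways, with 3 of 9 higher and 3 lower in LLC and 1 of 10 higher and 3 lower in CITE-seq LLC. Atf3, a stress transcription factor gene, had 106 CPM in LLC cells, 104 CPM in CITE-seq LLC cells and 284 CPM in B16 cells, ratios of 0.373 (0.361-0.386) and 0.366 (0.354-0.379). Ddit3, encoding CHOP, had ratios of 0.596 (0.555-0.640) and 0.625 (0.582-0.672), and Trib3 ratios of 0.604 (0.476-0.769) and 0.434 (0.334-0.565). Slc7a11, the cystine transporter gene, went the other way, with 93.9, 54.6 and 23.8 CPM in LLC, CITE-seq LLC and B16, ratios of 3.94 (3.62-4.29) and 2.29 (2.10-2.50).

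**Figure D4:**
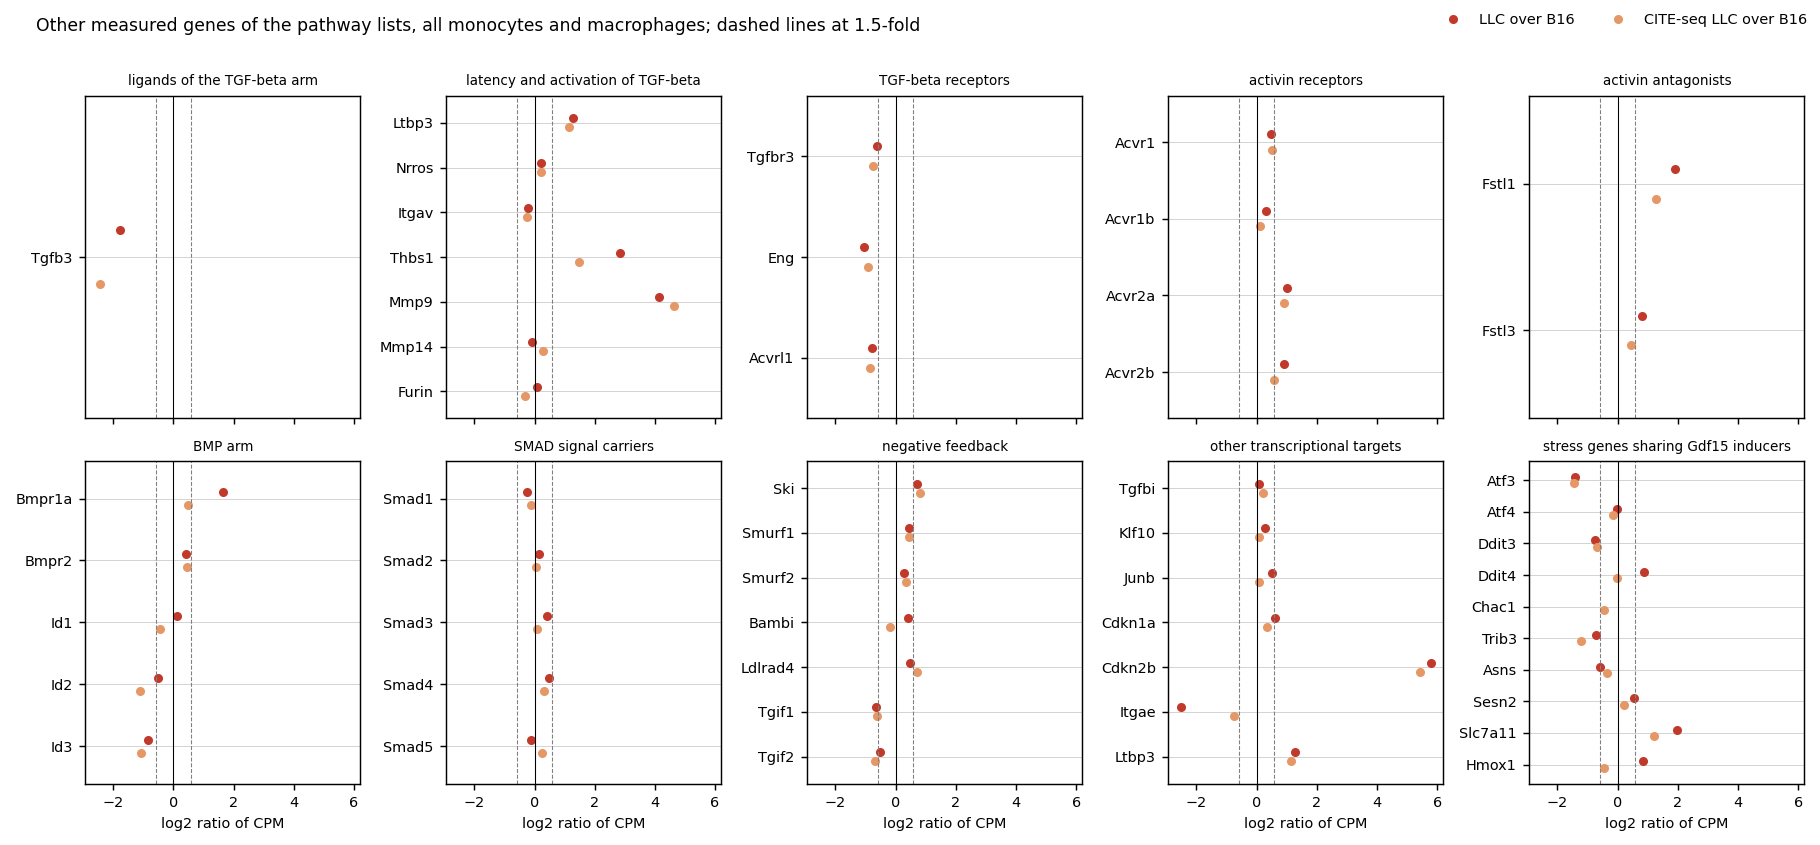
Ratio of CPM (x axis, log2 scale) of LLC over B16 and of CITE-seq LLC over B16 over all monocytes and macrophages for the measured listed genes other than the 8 (y axis), 1 panel for each list with such a gene, with dashed lines at 1.5-fold. Mmp9 and Thbs1 lie right of the lines, Eng, Acvrl1 and Atf3 lie left of them, all SMAD signal carriers lie between them, and the Cdkn2b points rest on 1 B16 UMI.

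Across the 24 units of subset and library with at least 50 cells, the patterns of the 8 genes were compared with those of 6972 genes by Pearson's r of log2(CPM + 10). The units share 3 libraries and differ in depth, so r is a description. The genes most like Pmepa1 were Actn1 (0.952), Ltc4s (0.951) and Trim47 (0.949). Those most like Tgfbr2 were Scoc (0.924), Slc12a7 (0.922) and 2610507B11Rik (0.907), and those most like Tgfb1 were Bri3bp (0.921) and Tmem131l (0.916). For Gdf15 they were Impact (0.926), Ftl1 (0.910) and Fem1b (0.907), and for Inhba Hcar2 (0.913), Ubb (0.895) and Csf2rb2 (0.885). For Tgfbr1 they were Clcc1 (0.889), Abcf1 (0.886) and Pdrg1 (0.884), for Smad7 Tmem189 (0.872), Tcf25 (0.869) and Fcrlb (0.857), and for Skil Ppp1r11 (0.854), Scamp2 (0.822) and Pnpt1 (0.817).

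Among the 8 genes themselves, the patterns of Pmepa1 and Tgfbr2 were alike at r = 0.690, and those of Inhba and Smad7 at r = 0.593. Inhba ran opposite to Tgfbr1 at r = -0.720 and Tgfb1 opposite to Gdf15 at r = -0.743. Among the 3 target genes r was 0.165 for Pmepa1 and Smad7, 0.335 for Pmepa1 and Skil and -0.404 for Smad7 and Skil.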

How the data were processed

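The authors deposited UMI counts per gene and cell with their own cell annotation for 1 LLC, 1 CITE-seq LLC and 1 B16 library, made with Cell Ranger on mm10 per the submitters' processing notes; no version or cell filter is given in the sources used here. The monocyte and macrophage table held 61873864 UMIs in LLC, 57060792 in CITE-seq LLC and 24785633 in B16. From these counts, UMIs were summed per gene, annotated cell type and library and divided by the summed total (CPM). Units of at least 50 cells were used. Levels carry exact Poisson and ratios exact conditional binomial 95% intervals, and cover counting error only. A gene was called measured if both groups summed to 20 UMIs or more and each library held at least 1. A ratio against 0 UMIs is a bound at 3 counts, a rule applied after seeing the values. With 1 library per group no test was possible. The B16 annotation used for Mac-1 and Mac-2 is a separate one of the same library. The 8 genes and all lists were chosen with earlier results of these data known. Genes named beyond the 8 are the 3 most like each by r among genes with at least 20 CPM in a unit, and listed genes past 1.5-fold in both LLC libraries or at the end of a list's range. Of the genes these rules take in, some are not reported here and were left out of the list counts.

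Doublets: Scrublet's own threshold marked between 0 and 4 cells of a library, so it was taken not to have worked, and the 6% of cells with the highest scores were left out as an alternative. Other alternatives were median-of-ratios scaling, thinning to 2000 UMIs, mean CPM per cell, equal weight of subsets, a minimum of 1 UMI and a 2-fold threshold. Equal weight used only the subsets with at least 50 cells in both libraries, so TAM-1, TAM-2, TAM-3 and TAM-4 were among those left out. Scripts were tested on simulated counts. Tools were Python 3.11.15, numpy 2.4.6, scipy 1.17.1, pandas 2.3.3, scanpy 1.11.5 and matplotlib 3.10.9.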

Additional observations from a re-analysis of the deposited data

Results flagged for a closer look

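For 5 of the 8 genes the ratio of LLC to B16 passed 1.5-fold in opposite directions in different cell types, which is what drew attention to them; 1 ratio in each direction is given per gene, and the difference between the cell types was not tested. In the joint table, Inhba had ratios of 5.48 in Monocytes, from 23 LLC and 2 B16 UMIs, and 0.225 in Imm TAM-3. Pmepa1 had 5.72 in Imm TAM-3 and 0.641 in NK cells. Its larger ratio in Imm TAM-4 stands in the text above. Tgfb1 had 1.67 in cDC2 and 0.493 in Neutrophil-2. Tgfbr1 had 2.84 in Imm TAM-4 and 0.455 in Neutrophil-1, and Tgfbr2 1.89 in Imm TAM-2 and 0.443 in Neutrophil-1.

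Among monocytes and macrophages, Tgfbr2 had LLC to B16 ratios of 2.25 in Mono/TAM Hypoxic and 0.628 in Monocytes, and CITE-seq LLC to B16 ratios of 2.12 in Mono/TAM IFN and 0.573 in Monocytes. The CITE-seq LLC to B16 ratio of Inhba was 7.23 in Immature TAM-1, from 12 CITE-seq LLC UMIs, and 0.0301 in Mono/TAM IFN.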

How the results depend on the processing

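No paired analysis was possible because each group is 1 library and no replicate numbers are shared. Of the 8 genes, the number past 1.5-fold in LLC against B16 stayed at 3 under every alternative but one: with TAM-4 left out, chosen after seeing the data, it was 5, as Tgfbr1 and Tgfbr2 were also lower. TAM-1 of B16 was kept in that alternative, so like subsets were not compared. For CITE-seq LLC the number past 1.5-fold ran between 3 and 5. Smad7 was not past the threshold there under median-of-ratios scaling, thinning, mean CPM, equal weight, doublet removal or the 2-fold threshold. Over the joint cell types, 31 pairs of gene and cell type were past 1.5-fold, 17 past 2-fold and 23 with thinned counts. Over all monocytes and macrophages, no gene's ratio past the threshold changed direction, which was not checked for the joint cell types. Over all alternatives the Pmepa1 ratio ran between 3.09 and 8.92 in LLC and 4.20 and 11.4 in CITE-seq LLC, Inhba between 0.271 and 0.620 and between 0.107 and 0.364, and Gdf15 between 0.175 and 0.248 and between 0.134 and 0.502. Median-of-ratios scaling shifted all genes by 0.12, -0.22 and -0.14 on the log2 scale in Imm TAM-2, Neutrophil-1 and Neutrophil-2. Of the alternatives for single genes, 45 of 120 moved the value beyond its counting interval. The cause was not tested. Depth limits Gdf15 and Inhba most, with few UMIs outside their main subsets.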

Other observations

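The CITE-seq LLC library also carried 172 antibody tags, among them CD105, the protein of the listed co-receptor gene Eng. Over all monocytes and macrophages CD105 had 712 counts per 1000000 tag counts (692-732), against a mean of 236 and a highest value of 1270 over the 9 isotype control tags, so it lay above the mean control and below the highest one. By subset it exceeded every control in TAM-4, at 845 (810-881) against 804, Mono/TAM IFN, at 698 (632-769) against 654, and Immature TAM-2, at 610 (535-692) against 516. In the other subsets of at least 50 cells it lay below the highest control, which reached 7226 in Immature TAM-3.

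Smad6, an inhibitory SMAD of the BMP arm, had 41 UMIs in B16 monocytes and macrophages and was listed at 0 in both LLC libraries, where a gene may have been left out before deposit, so the 0 is not read as an absence. It was named after its values were seen, and such genes got no ratio.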
